A study of Homo sapiens with 12 samples.

Results

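The 10 genes described here are ATF4, DDIT3, TRIB3, CHAC1, ASNS, VLDLR, DDIT4, HSPA5, XBP1 and HERPUD1, which belong to the integrated stress response and the unfolded protein response. They are taken by name, as genes of these pathways, with earlier results of these data known, and each is 1 row among the 25365 gene names of the expression table. All 10 reached the mean of 1 FPKM (fragments mapped per kilobase of transcript, scaled by the library total) over the libraries that was required for testing, as did 11881 names in all. The cells were A549, a human lung adenocarcinoma line, either wild type or PARP3-/-. PARP3 is a nuclear enzyme that attaches ADP-ribose to proteins at DNA breaks. Each genotype received vehicle (DMSO) or 1 µM pyridostatin, a small molecule that binds and stabilises G-quadruplex (G4) DNA, for 24 h before RNA was isolated. Each of the 4 groups had 3 libraries from biological replicates. The PARP3-/- cells were made with transiently expressed Cas9 and paired guides against the first exon and were cloned by dilution. The study made its PARP3-/- A549 cells in a line that carried its reporter for chromosomal rearrangements. How many clones stand behind the 3 libraries of a group is not given in the sources used here.

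When unfolded proteins build up in the endoplasmic reticulum (ER), or when amino acids run short, kinases phosphorylate the translation factor eIF2. Most protein synthesis then slows, while the mRNA of the transcription factor ATF4 is translated more, and ATF4 turns on genes for amino acid supply, redox balance and, if stress goes on, cell death. In parallel, the ER sensor IRE1 splices the mRNA of XBP1 and the sensor ATF6 is cut to release a transcription factor, and both raise ER chaperones and the machinery that clears misfolded proteins. ATF4 protein and XBP1 splicing are therefore controlled after transcription, and neither is seen in gene-level FPKM.

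The level of PARP3 was first compared in every library. Wild-type libraries held 3.83, 3.40 and 3.96 FPKM with vehicle and 3.74, 3.57 and 4.05 FPKM with pyridostatin. Libraries labelled PARP3-/- held 4.92, 4.07 and 4.25 FPKM with vehicle and 4.73, 4.71 and 4.30 FPKM with pyridostatin. The gene was thus not lower under the PARP3-/- label, and the groups did not overlap (exact two-sided permutation test, p = 0.1 with either treatment, the smallest p that 3 against 3 allows). The guides cut in the first exon and FPKM sums reads over the whole transcript, so this level cannot show whether the deletion is present. The genotype is therefore given as the label throughout.

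All 6 epithelial keratin and adhesion genes checked were detected in every library, with summed levels of 6912 to 8630 FPKM per library, although EPCAM stayed at or below 2.36 FPKM. EPCAM (log2 differences -0.53 with vehicle and -0.48 with pyridostatin) and CDH1 (-0.42 and -0.51) were lower under the PARP3-/- label and KRT19 was higher (0.85 with both treatments), each with a limma adjusted p under 0.05. Among 9 markers of blood, endothelial, fibroblast and erythroid cells, 7 stayed at or below 0.05 FPKM in every library, with CD3E at 0 in all. The exceptions were COL1A1, with a maximum of 1.63 FPKM, and HBB, with a maximum of 2.61 FPKM. COL1A1 was higher under the PARP3-/- label (0.45 and 0.38), and the summed level of the 9 markers was 0.809 to 1.20 FPKM in wild-type libraries and 1.33 to 3.95 FPKM in libraries labelled PARP3-/-. The sum of 3.95 FPKM was that of PARP3-/- vehicle replicate 2, where HBB was 2.61 FPKM. HBB was at most 0.45 FPKM in the other libraries with that label and at most 0.53 FPKM in wild type. The part of these markers in the genotype differences below was not tested. Wild-type vehicle replicate 2 stood apart, with a summed level of 563470 FPKM against 492840 to 525120 FPKM in the other libraries. It was the highest of its group for 9 of the 10 genes, and the share of all tested genes highest in it was not counted. Its median log2(FPKM + 1) over the tested genes was the lowest of all libraries (3.45 against 3.49 to 3.55). The part of this library in the results was tested by leaving it out. Calls of the 10 genes that change without it are given with their adjusted p. In bulk RNA, fewer cells that express a gene and less RNA per cell cannot be told apart.

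The promoters were read first, because the 10 genes are known for different control elements. RefSeq promoters (GRCh38.p14, 250 bases before to 50 bases after the start, both strands) matched all 10 symbols. The CARE motif, TGATGNAA, to which ATF4 binds with a C/EBP partner, occurred upstream of CHAC1, ASNS and HERPUD1, and in 3.67% of the 27305 promoters. The ER stress element (ERSE, here CCAAT, any 9 bases, then CCACG), the site of ATF6 with NF-Y, occurred upstream of HSPA5 and XBP1, and in 0.0806% of all promoters. The second form (ERSE-II, ATTGG, any base, then CCACG) occurred upstream of HERPUD1, and in 0.0549%. The UPRE core TGACGTGG, a site of spliced XBP1, occurred in none of the 10 genes, and in 0.795%. A G4 pattern (4 runs of at least 3 G with loops of 1 to 7 bases) occurred upstream of ATF4, TRIB3 and ASNS, and in 24.1%. In ASNS the G4 pattern and the CARE match did not overlap. DDIT3, DDIT4 and VLDLR held none of these letters. A match is a description of the sequence, not a site shown to be used in these cells.

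Shown here are the bases just upstream of the start of 6 genes, 5′ to 3′ along the gene, with each match in capitals. HSPA5 and XBP1 are the genes with an ERSE (positions -66 to -48 and -52 to -34 from the start). They lie at chr9:125241344-125241493 and chr22:28800570-28800719, both on the minus strand. HERPUD1 (chr16:56931892-56932141, plus strand) is shown over 250 bases, since it holds an ERSE-II at -117 to -107 and a CARE on the opposite strand at -176 to -169.
HSPA5: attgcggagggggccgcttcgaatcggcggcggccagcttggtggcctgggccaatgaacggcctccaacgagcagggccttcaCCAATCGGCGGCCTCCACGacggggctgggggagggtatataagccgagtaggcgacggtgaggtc
XBP1: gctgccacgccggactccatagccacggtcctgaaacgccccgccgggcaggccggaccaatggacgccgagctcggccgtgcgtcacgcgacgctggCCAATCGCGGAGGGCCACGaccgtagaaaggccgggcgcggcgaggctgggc
HERPUD1: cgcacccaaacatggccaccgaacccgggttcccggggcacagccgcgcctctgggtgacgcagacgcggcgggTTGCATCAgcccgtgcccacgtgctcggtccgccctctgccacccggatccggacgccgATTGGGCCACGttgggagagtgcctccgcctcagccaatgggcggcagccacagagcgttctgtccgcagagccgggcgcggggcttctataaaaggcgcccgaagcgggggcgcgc
ASNS (chr7:97872409-97872558, minus strand) is shown for its CARE at -68 to -61 and the G4 pattern on the opposite strand at -122 to -97, which reads as runs of C. TRIB3 (chr20:381145-381294, plus strand) is shown for its G4 pattern at -85 to -61. DDIT4 (chr10:72273774-72273923, plus strand), the gene with the greatest genotype difference of the 10, is shown because it held no match.
ASNS: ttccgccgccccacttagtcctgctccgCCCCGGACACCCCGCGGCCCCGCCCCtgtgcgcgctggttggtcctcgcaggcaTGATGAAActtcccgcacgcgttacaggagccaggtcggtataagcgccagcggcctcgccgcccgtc
TRIB3: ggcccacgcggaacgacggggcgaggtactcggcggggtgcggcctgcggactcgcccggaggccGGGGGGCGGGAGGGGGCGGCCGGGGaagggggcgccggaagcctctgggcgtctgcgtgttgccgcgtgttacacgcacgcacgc
DDIT4: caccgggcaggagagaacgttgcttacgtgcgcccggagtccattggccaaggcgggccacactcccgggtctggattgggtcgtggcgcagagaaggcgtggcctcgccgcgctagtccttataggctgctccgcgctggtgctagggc

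**Figure D1:**
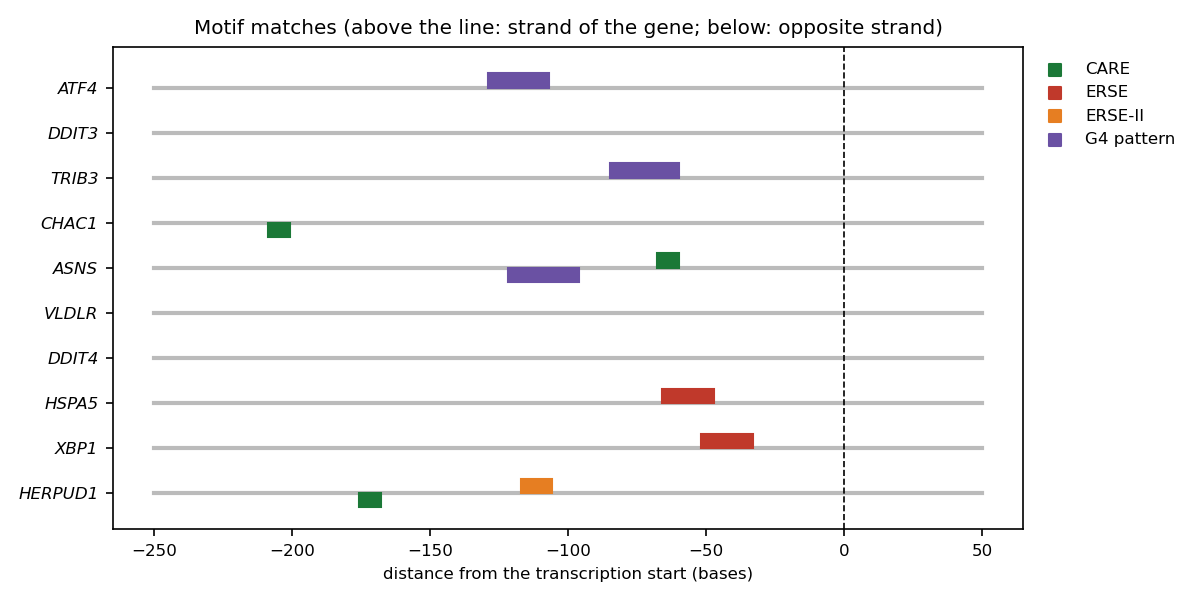
Position of each motif match in the promoters of the 10 genes (x axis, distance from the transcription start in bases; y axis, genes). Boxes above a line are on the strand of the gene and boxes below it on the opposite strand, and DDIT3, VLDLR and DDIT4 have no box.

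By FPKM, which is per length and so allows levels of different genes to be set side by side, ATF4 was the highest of the 10, with a mean of 187.9 FPKM over the 12 libraries. HSPA5 followed with 161 FPKM and DDIT4 with 72.5 FPKM. ASNS (34.2 FPKM), TRIB3 (31.6 FPKM), XBP1 (26.1 FPKM) and HERPUD1 (25.4 FPKM) lay close together, and the libraries of each neighbouring pair overlapped. The lowest were DDIT3 (8.68 FPKM), VLDLR (5.42 FPKM) and CHAC1 (3.42 FPKM). Within every library ATF4 was above HSPA5. Their ranges over all libraries overlapped, with ATF4 from 171.7 to 225.5 FPKM and HSPA5 from 136 to 182 FPKM.

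**Figure D2:**
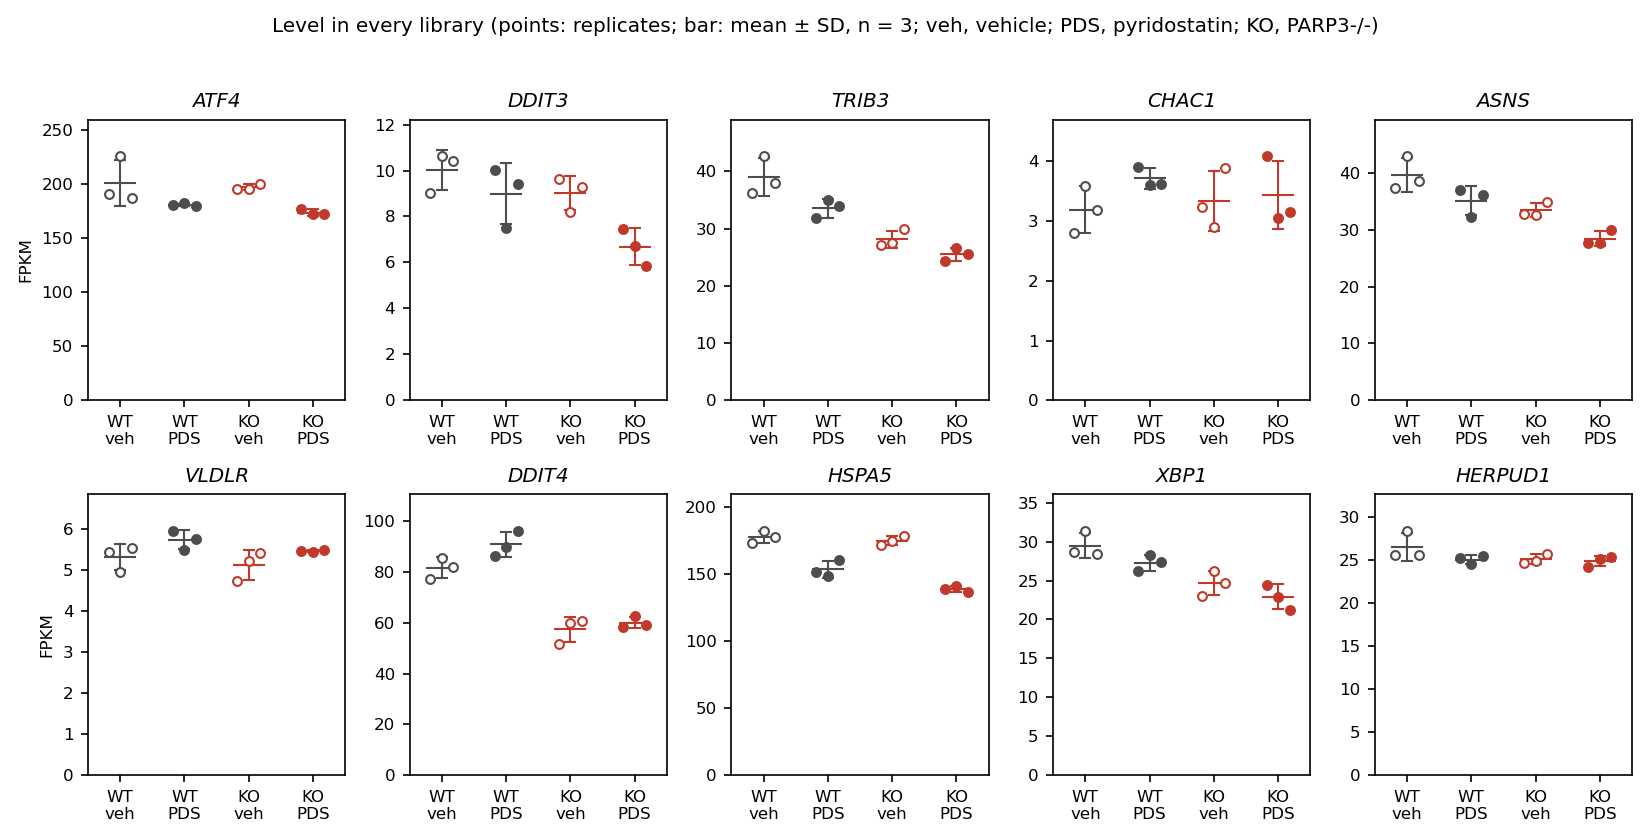
Level of each of the 10 genes in every library (y axis, FPKM from 0; x axis, the 4 groups). Points are libraries and bars are the mean ± SD of 3; WT, wild type; KO, labelled PARP3-/-; veh, vehicle; PDS, pyridostatin. The groups labelled PARP3-/- lie below wild type for TRIB3 and DDIT4, and the pyridostatin groups below vehicle for HSPA5.

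Differences were tested on the log2(FPKM + 1) scale with limma, in 1 model of the 4 groups, and p-values were adjusted by the Benjamini-Hochberg method over all 11881 genes. A gene is said to have risen or fallen at an adjusted p under 0.05. None of the 10 reached a log2 difference of 1 in any comparison, so all of the changes below are modest. With vehicle, 4 of the 10 genes (DDIT4, TRIB3, XBP1 and ASNS) were lower under the PARP3-/- label and none was higher. Among all tested genes 3.01% were lower and 6.4% higher. With pyridostatin, 5 of the 10 (the same 4 and HSPA5) were lower and none was higher, against 3.85% lower and 7.07% higher of all tested genes. The median log2 difference of the 10 was -0.10 with vehicle and -0.19 with pyridostatin, beside 0.01 over all tested genes in either case. These comparisons ask what differs between the genotypes with vehicle and, in separate libraries, with pyridostatin. G4 DNA itself is not measured by RNA sequencing.

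Pyridostatin lowered 1 of the 10 genes in each genotype, HSPA5 in both, and raised none. In wild-type cells 1.38% of all tested genes were lower and 2.79% higher with pyridostatin. In cells labelled PARP3-/- 2.52% were lower and 3.05% higher. The median log2 difference of the 10 was -0.13 in wild type and -0.12 under the PARP3-/- label, beside 0.00 over all tested genes in both. The genotype comparisons and the pyridostatin comparisons share groups, so their values are given side by side and are not independent.

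**Figure D3:**
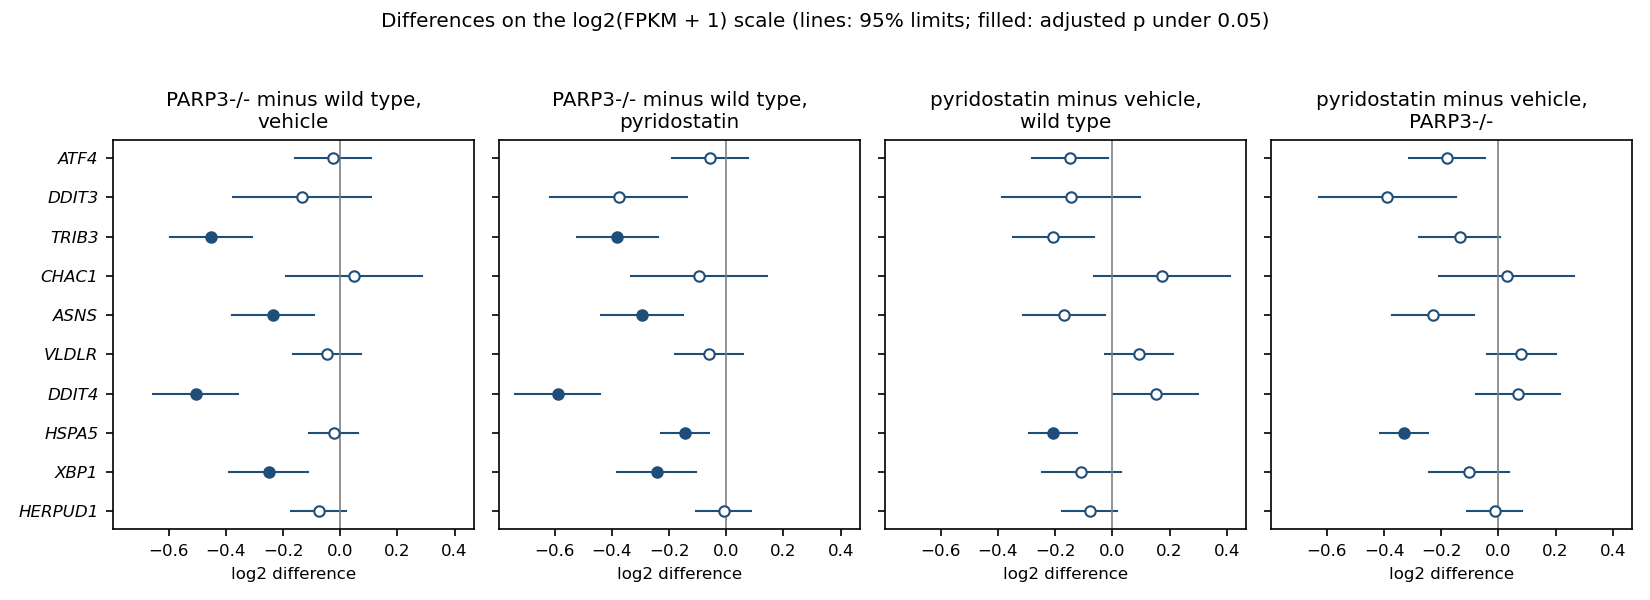
Difference of each of the 10 genes in the 4 comparisons (x axis, log2 difference on the log2(FPKM + 1) scale, first group minus second; lines, 95% confidence limits; filled points, adjusted p under 0.05). DDIT4 and TRIB3 lie lowest in both genotype panels, and HSPA5 is the filled point in both pyridostatin panels.

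DDIT4 (also called REDD1) is a stress-induced inhibitor of the growth kinase complex mTORC1. Wild-type cells held 77.4, 85.6 and 82.2 FPKM with vehicle and 86.5, 89.9 and 96.2 FPKM with pyridostatin. Cells labelled PARP3-/- held 51.5, 59.9 and 60.7 FPKM with vehicle and 58.3, 62.7 and 59.2 FPKM with pyridostatin. Every library labelled PARP3-/- was below every wild-type library. The mean was 29.8% lower with vehicle (log2 difference -0.51, SE 0.067, limma adjusted p = 0.000753) and 33.9% lower with pyridostatin (-0.59, SE 0.067, limma adjusted p = 0.000239). Under pyridostatin all 3 wild-type libraries were above the vehicle libraries, but the difference of 0.15 did not pass (limma adjusted p = 0.239). Under the PARP3-/- label the vehicle and pyridostatin libraries overlapped (difference 0.07, limma adjusted p = 0.642).

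TRIB3, a pseudokinase that ATF4 and DDIT3 induce and that in turn restrains ATF4, showed the second greatest genotype difference of the 10 with vehicle. Its levels in wild type were 36.3, 42.7 and 37.9 FPKM with vehicle and 31.8, 35.0 and 33.9 FPKM with pyridostatin. Under the PARP3-/- label they were 27.2, 27.4 and 29.9 FPKM with vehicle and 24.4, 26.7 and 25.6 FPKM with pyridostatin. Here too the genotypes did not overlap with either treatment. TRIB3 was 27.7% lower with vehicle (log2 difference -0.45, SE 0.064, limma adjusted p = 0.00116) and 23.9% lower with pyridostatin (-0.38, SE 0.064, limma adjusted p = 0.00318). Pyridostatin libraries lay below vehicle libraries in both genotypes, yet neither difference passed (-0.21 with limma adjusted p = 0.104 in wild type, -0.14 with limma adjusted p = 0.283 under the PARP3-/- label). The genotype calls of DDIT4 and TRIB3 held in all 20 alternative analyses of each comparison.

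ASNS makes asparagine from aspartate and glutamine and is a textbook target of ATF4 through the CARE in its promoter, printed above. Wild-type libraries held 37.4, 42.9 and 38.6 FPKM with vehicle and 36.9, 32.3 and 36.2 FPKM with pyridostatin. Libraries labelled PARP3-/- held 32.8, 32.6 and 35.0 FPKM with vehicle and 27.7, 27.6 and 29.9 FPKM with pyridostatin. ASNS was 15.5% lower under the PARP3-/- label with vehicle (log2 difference -0.24, SE 0.064, limma adjusted p = 0.0444) and 19.1% lower with pyridostatin (-0.29, SE 0.064, limma adjusted p = 0.0137). The first of these is close to the threshold and held in 6 of 20 alternatives (adjusted p from 0.0267 to 0.146). It held without wild-type vehicle replicate 1 or wild-type pyridostatin replicate 2 and was lost without any 1 of the other 10 libraries. Without wild-type vehicle replicate 2 the difference was -0.18 (limma adjusted p = 0.0833). The call with pyridostatin held in 16 of 20 (0.00471 to 0.0655) and was lost without replicate 1 or 3 of wild type or replicate 1 or 2 of the PARP3-/- label, all with pyridostatin. With pyridostatin under the PARP3-/- label ASNS missed the threshold (-0.23, limma adjusted p = 0.0679), and it passed without wild-type vehicle replicate 2 (limma adjusted p = 0.0247) or wild-type pyridostatin replicate 2, or when only the libraries compared were fitted.

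CHAC1 and VLDLR, the other ATF4-linked targets, did not pass in any comparison. CHAC1, an enzyme that degrades glutathione, held 2.80, 3.59 and 3.18 FPKM in wild type with vehicle and 3.91, 3.60 and 3.63 FPKM with pyridostatin. Under the PARP3-/- label it held 3.24, 2.89 and 3.88 FPKM with vehicle and 4.08, 3.05 and 3.15 FPKM with pyridostatin. The 3 wild-type pyridostatin libraries lay just above the vehicle ones (log2 difference 0.17, 95% limits -0.063 to 0.41, limma adjusted p = 0.397), and the other groups overlapped. At this level the limits on CHAC1 are wide, from -0.19 to 0.28 for genotype with vehicle and from -0.33 to 0.14 with pyridostatin. VLDLR, the very low density lipoprotein receptor, held 5.45, 4.97 and 5.55 FPKM in wild type with vehicle and 5.96, 5.50 and 5.78 FPKM with pyridostatin. Under the PARP3-/- label it held 4.73, 5.22 and 5.43 FPKM with vehicle and 5.48, 5.44 and 5.50 FPKM with pyridostatin. By small margins, the libraries did not overlap between vehicle and pyridostatin under the PARP3-/- label, nor between genotypes with pyridostatin. The differences of VLDLR lay between -0.06 and 0.09, and the smallest limma adjusted p was 0.363.

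ATF4 itself showed no genotype difference past the threshold. Wild-type libraries held 190.2, 225.5 and 186.8 FPKM with vehicle and 180.1, 181.8 and 179.5 FPKM with pyridostatin. Libraries labelled PARP3-/- held 195.5, 194.8 and 199.8 FPKM with vehicle and 176.9, 171.8 and 171.7 FPKM with pyridostatin. The genotype difference was -0.02 with vehicle (95% limits -0.16 to 0.11, limma adjusted p = 0.874) and -0.06 with pyridostatin (-0.19 to 0.076, limma adjusted p = 0.636), where the libraries of the genotypes did not overlap. Pyridostatin libraries lay below the vehicle libraries in both genotypes, by 10.1% in wild type and 11.8% under the PARP3-/- label. Neither passed (log2 difference -0.15 with limma adjusted p = 0.201, and -0.18 with limma adjusted p = 0.119). The second passed in 3 of 20 alternatives, without wild-type vehicle replicate 2 (adjusted p = 0.00147), after quantile normalization and when only the libraries compared were fitted (adjusted p from 0.00147 to 0.291 over the 20). In wild type the difference with pyridostatin was -0.06 without wild-type vehicle replicate 2 (limma adjusted p = 0.179). ATF4 also has processed pseudogenes, and how reads that map to several places were treated is not given in the sources used here.

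DDIT3 (CHOP), the transcription factor linked to cell death under lasting ER stress, was lowest where both labels met. It held 9.01, 10.6 and 10.4 FPKM in wild type with vehicle, 10.0, 7.52 and 9.43 FPKM in wild type with pyridostatin and 9.62, 8.21 and 9.27 FPKM under the PARP3-/- label with vehicle. In the 3 libraries labelled PARP3-/- with pyridostatin it held 7.48, 6.72 and 5.85 FPKM, below every other library. Neither comparison with that group passed. Against wild type with pyridostatin the mean was 25.7% lower (log2 difference -0.38, SE 0.11, limma adjusted p = 0.0514, passing in 5 of 20 alternatives with adjusted p from 0.0146 to 0.186). Those 5 were pseudocount 0.1, quantile normalization and leaving out PARP3-/- pyridostatin replicate 1, wild-type pyridostatin replicate 2 or wild-type vehicle replicate 2 (adjusted p = 0.0426 without the last). Against the PARP3-/- label with vehicle it was 26.0% lower (-0.39, SE 0.11, limma adjusted p = 0.0677, passing in 2 of 20 with adjusted p from 0.0406 to 0.238). It passed without wild-type pyridostatin replicate 2 and, at an adjusted p of 0.0492, without wild-type vehicle replicate 2. The groups labelled PARP3-/- and wild type overlapped with vehicle (difference -0.13, limma adjusted p = 0.550).

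HSPA5 encodes BiP, the main chaperone of the ER lumen, and is the usual reporter of the ATF6 arm through the ERSE printed above. With vehicle it held 173, 182 and 178 FPKM in wild type and 172, 174 and 178 FPKM under the PARP3-/- label, so the genotypes overlapped (difference -0.02, 95% limits -0.11 to 0.061). With pyridostatin it held 151, 149 and 161 FPKM in wild type and 139, 141 and 136 FPKM under the PARP3-/- label. All pyridostatin libraries were below all vehicle libraries. HSPA5 fell by 13.5% in wild type (log2 difference -0.21, SE 0.038, limma adjusted p = 0.0138) and by 20.5% under the PARP3-/- label (-0.33, SE 0.038, limma adjusted p = 0.000831). The fall under the PARP3-/- label held in 20 of 20 alternatives. The fall in wild type held in 18 of 20 and was lost without wild-type pyridostatin replicate 1 or when only the 6 wild-type libraries were fitted (adjusted p from 0.0119 to 0.156).

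With pyridostatin HSPA5 was also 9.59% lower under the PARP3-/- label than in wild type (log2 difference -0.14, SE 0.038, limma adjusted p = 0.0358). That call held in 10 of 20 alternatives (adjusted p from 0.0142 to 0.139). It was lost with the replicate number as a block, after quantile normalization, when only the libraries compared were fitted, and without any 1 of 7 libraries. These were the 3 labelled PARP3-/- with pyridostatin, PARP3-/- vehicle replicate 2, wild-type pyridostatin replicates 1 and 3 and wild-type vehicle replicate 3. Whether the response to pyridostatin differed between genotypes was tested by the interaction. None of the 10 genes passed (limma adjusted p = 0.999 for each). An unadjusted p under 0.05 was found in 1 of the 10, HSPA5, at -0.12 (95% limits -0.24 to -0.0012, unadjusted p = 0.0481 in limma), and in 4.39% of all tested genes. For the other 9 genes the interaction ranged from -0.24 for DDIT3 (95% limits -0.58 to 0.098) to 0.07 for TRIB3 (-0.13 to 0.27).

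XBP1, the transcription factor of the IRE1 arm, was lower under the PARP3-/- label with both treatments. Wild-type libraries held 28.7, 31.4 and 28.4 FPKM with vehicle and 26.2, 28.2 and 27.4 FPKM with pyridostatin. Libraries labelled PARP3-/- held 23.1, 26.2 and 24.7 FPKM with vehicle and 24.5, 23.0 and 21.3 FPKM with pyridostatin. The genotypes did not overlap within a treatment, with means 16.4% lower with vehicle (log2 difference -0.25, SE 0.063, limma adjusted p = 0.0301) and 16.0% lower with pyridostatin (-0.24, SE 0.063, limma adjusted p = 0.0311). Each call held in 15 of 20 alternatives, and with vehicle it was lost when only the libraries compared were fitted and without wild-type vehicle replicate 1 or 2 or PARP3-/- vehicle replicate 1 or 3. Without wild-type vehicle replicate 2 the difference was -0.21 (limma adjusted p = 0.0631). With pyridostatin it was lost without any 1 of the wild-type pyridostatin replicates or without PARP3-/- pyridostatin replicate 2 or 3. With pyridostatin the 3 wild-type libraries lay just below those with vehicle, without passing, and under the PARP3-/- label the treatments overlapped. The FPKM value sums both splice forms. HERPUD1, an ER membrane protein that helps to clear misfolded proteins, was the steadiest of the 10. It held 25.6, 28.3 and 25.6 FPKM in wild type with vehicle, 25.1, 24.4 and 25.4 FPKM in wild type with pyridostatin, 24.7, 24.9 and 25.7 FPKM under the PARP3-/- label with vehicle and 24.1, 25.1 and 25.3 FPKM under that label with pyridostatin. In wild type the pyridostatin libraries lay just below the vehicle ones, and the other groups overlapped. No comparison of HERPUD1 passed, and its differences lay between -0.08 and -0.01 (smallest limma adjusted p = 0.338).

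Promoter matches and calls can be set side by side as a description. The 3 genes with a G4 pattern, ATF4, TRIB3 and ASNS, did not pass under pyridostatin, although the point estimates were below 0 in both genotypes. In each genotype 7 of the 10 genes had a point estimate below 0, so this sign is not particular to the genes with the pattern. Of the genes with an ERSE, HSPA5 fell with pyridostatin in both genotypes and XBP1 did not pass (-0.11 with limma adjusted p = 0.364 in wild type, -0.10 with limma adjusted p = 0.419 under the PARP3-/- label). Of the 3 genes with a CARE, only ASNS was called in any comparison.

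DDIT3, TRIB3 and DDIT4 were the genes whose 4 group means spanned at least 0.5 on the log2(FPKM + 1) scale. The genes with the most similar profile were found by the root mean square (rms) difference over the 12 libraries after centring each gene, which describes likeness of pattern and is not a test. Nearest to TRIB3 were TMEM141, a small membrane protein (rms 0.0601), AKR1C1, an aldo-keto reductase (rms 0.0609), and PCK2, the mitochondrial phosphoenolpyruvate carboxykinase (rms 0.0625). The group means of PCK2 were 13.1 FPKM in wild type with vehicle, 12.3 FPKM in wild type with pyridostatin, and 9.51 and 8.56 FPKM under the PARP3-/- label with vehicle and pyridostatin. AKR1C1 shares much of its sequence with its neighbours in the same family, so its level is uncertain. DDIT4 was nearest to FOXC1, a forkhead transcription factor (rms 0.0938), CXXC5, a CXXC zinc-finger protein (rms 0.0940), and TJP3, a tight junction protein (rms 0.0963). The group means of FOXC1, CXXC5 and TJP3 all stood at or below 5.39 FPKM. DDIT3 was nearest to NUF2 (rms 0.0971) and SPC25 (rms 0.110), both kinetochore proteins, and CETN3, a centrin (rms 0.112).

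The other genes of these pathways were described by 4 lists with 88 genes, of which 85 were tested. ATF6B was listed at 0 in every library, and FGF21 and DERL3 did not reach the mean for testing. The first list holds the stress sensors, the kinases and phosphatases of eIF2 and its subunits, with 18 of 19 genes tested. In this list 0 genes passed with pyridostatin in wild type. An unadjusted p under 0.05 in limma was found in 2 of the 18, beside 2410 of all 11881 tested genes. EIF2S2, a subunit of eIF2, fell with pyridostatin under the PARP3-/- label (-0.25, limma adjusted p = 0.00922) and was lower there than in wild type with pyridostatin (-0.21, limma adjusted p = 0.0101). PPP1R15A (GADD34), which directs the removal of the eIF2 phosphate, was higher under the PARP3-/- label with vehicle (0.35, limma adjusted p = 0.0316). That call held in 12 of 20 alternatives (adjusted p from 0.0237 to 0.126). It was lost with the replicate block, with a common median, when only the libraries compared were fitted, and without wild-type vehicle replicate 1 or 3, PARP3-/- vehicle replicate 1 or 2 or PARP3-/- pyridostatin replicate 2. For PPP1R15A in wild type the difference with pyridostatin was 0.26 (limma adjusted p = 0.139). The sensors and eIF2 subunits thus gave 1 call or none in each comparison, and the medians lay between -0.06 and 0.01. Of all tested genes, 1.38% to 3.85% were lower and 2.79% to 7.07% higher in the 4 comparisons.

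The second list, transcription factors and signalling genes linked to ATF4, was the 1 of the 4 in which genes rose with pyridostatin. Of 13 tested, 6 rose and 1 fell in wild type, beside 2.79% and 1.38% of all tested genes. Under the PARP3-/- label 6 rose and 0 fell, beside 3.05% and 2.52%. SESN2, a leucine sensor that restrains mTORC1, rose in both genotypes, with a log2 difference of 0.79 in wild type (adjusted p = 0.00013) and 0.80 under the PARP3-/- label (adjusted p = 0.000112). GDF15, a secreted stress hormone, also rose in both, with differences of 0.79 (adjusted p = 0.00021) and 0.69 (adjusted p = 0.000425). GADD45A, a growth arrest gene, rose by 0.64 and 0.62 in the same order. TNFRSF10B, a death receptor, rose by 0.38 and 0.27, and BBC3 (PUMA), a promoter of apoptosis, by 0.87 and 0.92. These 5 genes passed in both genotypes in all 20 alternatives. All 5 are also known targets of p53, so they are not read as ATF4 targets alone. Between genotypes this list was mixed, with 3 higher and 3 lower with vehicle, beside 6.4% and 3.01% of all tested genes. With pyridostatin 1 was higher and 2 lower, beside 7.07% and 3.85%. STC2, a secreted glycoprotein, was lower under the PARP3-/- label with vehicle (-0.45) and with pyridostatin (-0.47). NUPR1, a stress-induced chromatin protein, was also lower with vehicle (-0.61, adjusted p = 0.0208) and with pyridostatin (-0.82, adjusted p = 0.00373). CEBPB, a transcription factor, was lower with vehicle (-0.65, adjusted p = 0.00715), its difference with pyridostatin was -0.06 (adjusted p = 0.830), and it rose with pyridostatin under the PARP3-/- label (0.56, adjusted p = 0.0272, holding in 14 of 20 alternatives and lost without any 1 of the 6 libraries labelled PARP3-/-). GADD45A was higher with both treatments (0.31 and 0.29), and TNFRSF10B with vehicle (0.18), with a difference of 0.08 with pyridostatin (adjusted p = 0.271). ATF3 was higher with vehicle (0.82, limma adjusted p = 0.0405, holding in 6 of 20 alternatives). With pyridostatin the ATF3 difference was 0.60 (limma adjusted p = 0.120).

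The third list holds amino acid transporters, enzymes of amino acid and one-carbon metabolism and tRNA synthetases, and all 28 genes were tested. None rose in any comparison, where 2.79% to 7.07% of all tested genes were higher. Under the PARP3-/- label 5 were lower with vehicle and 8 with pyridostatin, beside 3.01% and 3.85% of all tested genes. With pyridostatin 1 fell in wild type and 7 under the PARP3-/- label, beside 1.38% and 2.52%. SLC7A5 and SLC3A2, which pair as the LAT1 transporter of large neutral amino acids, were lower under the PARP3-/- label. SLC7A5 differed by -0.41 with vehicle (limma adjusted p = 7.46e-05) and -0.30 with pyridostatin (limma adjusted p = 0.000648). SLC3A2 differed by -0.33 and -0.31. PHGDH, the first enzyme of serine synthesis, differed by -0.34 and -0.36, and CTH, which makes cysteine, by -0.16 with vehicle (adjusted p = 0.126) and -0.26 with pyridostatin (adjusted p = 0.0161). The glutamine transporter SLC1A5 differed by -0.20 with vehicle (adjusted p = 0.0347, holding in 12 of 20 alternatives) and by -0.16 with pyridostatin (adjusted p = 0.0766). The call with vehicle was lost when only the libraries compared were fitted and without any 1 of the 3 PARP3-/- vehicle libraries, wild-type vehicle replicate 3, wild-type pyridostatin replicate 1 or 3 or PARP3-/- pyridostatin replicate 2. Pyridostatin lowered SLC1A5 in both genotypes (-0.29 and -0.25) and, under the PARP3-/- label, also the tRNA synthetases GARS (-0.14) and CARS (-0.21) and the mitochondrial folate enzyme MTHFD2 (-0.19), which held in 16, 17 and 16 of 20 alternatives. Each of these 3 was lost without PARP3-/- vehicle replicate 3.

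The fourth list holds ER chaperones, folding enzymes and genes of ER-associated degradation, with 26 of 27 tested. Here 3 fell with pyridostatin in wild type and 7 under the PARP3-/- label, beside 1.38% and 2.52% of all tested genes. None of the 26 rose, beside 2.79% and 3.05% of all tested genes. MANF, an ER-resident growth factor, fell by 0.56 on the log2 scale in wild type (adjusted p = 0.00268) and by 0.46 under the PARP3-/- label (limma adjusted p = 0.00691). The disulfide isomerases PDIA4 and PDIA6 fell in both, PDIA4 by 0.19 and 0.25 and PDIA6 by 0.19 and 0.23. HSP90B1 (GRP94), the HSP90 of the ER, fell by 0.33 under the PARP3-/- label (limma adjusted p = 0.00083), and its difference in wild type was -0.13 (adjusted p = 0.0842). Between genotypes with vehicle 0 of 26 passed. An unadjusted p under 0.05 in limma was found in 2 of the 26, beside 2564 of all 11881 tested genes. The smallest adjusted p was that of CRELD2, an ER chaperone (0.23, limma adjusted p = 0.0992). With pyridostatin 2 were lower under the PARP3-/- label, DNAJB11, a cofactor of BiP (-0.21), and HSP90B1 (-0.18), and none was higher. Of all tested genes 3.85% were lower and 7.07% higher there.

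Of the 85 genes of the 4 lists together, 6 rose and 5 fell with pyridostatin in wild type (2.79% and 1.38% of all tested genes), and 6 rose and 15 fell under the PARP3-/- label (3.05% and 2.52%). By genotype, 4 were higher and 8 lower with vehicle (6.4% and 3.01% of all tested genes), and 1 was higher and 13 lower with pyridostatin (7.07% and 3.85%). The interaction passed for 0 of 85, and 6 had an unadjusted p under 0.05 (4.39% of all tested genes did), so no difference in response between genotypes was detected for these genes. The medians of the 4 lists together lay between -0.06 and -0.01 in the 4 comparisons, beside 0.00 to 0.01 for all tested genes.

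**Figure D4:**
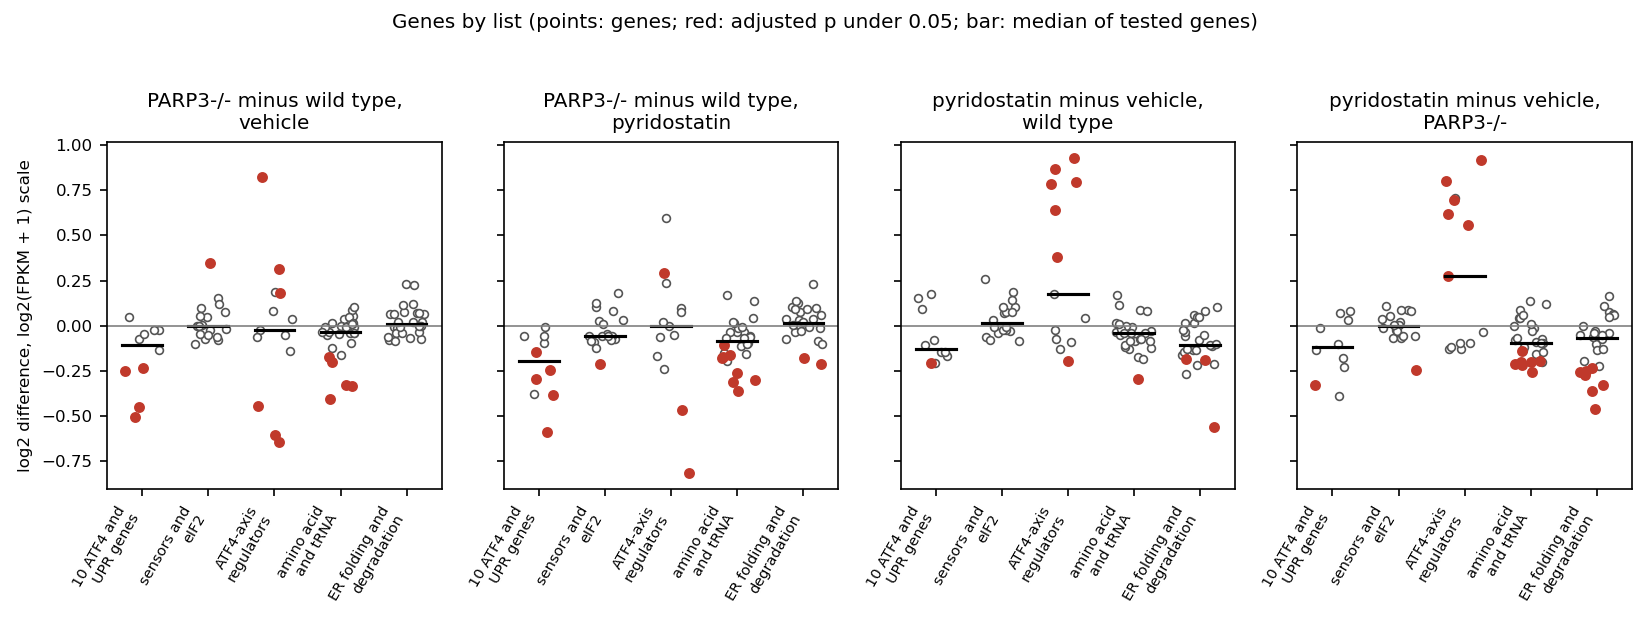
Differences of the 10 genes and of the tested genes of the 4 lists in the 4 comparisons (y axis, log2 difference on the log2(FPKM + 1) scale, first group minus second; points, genes, red at an adjusted p under 0.05; bars, medians). ER folding genes that passed lie below 0. In each pyridostatin panel 6 ATF4-linked regulators that passed lie above 0, and they are not all the same genes in both panels.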

How the data were processed

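A549 RNA was sequenced by the authors as stranded mRNA libraries with single-end reads of 75 bases. The submitters' processing notes name bcl2fastq 2.16, STAR 2.5, Cufflinks and the builds hg19 and mm9, without roles, and the annotation is not given in the sources used here. The authors deposited 1 table of FPKM values, 1 column per library without pooling, and all 12 columns were used. FPKM is already scaled to transcript length and to the fragments mapped in a library, so read counts and depth are not given. Steps between low values gave approximate depths of 22.1 to 31.3 (median 25.7), in units of 1000000 reads, but only 14.1% to 16.5% of low values lay on a common step, so whole reads were not recovered and no count test was run. The number of libraries limits the precision.

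Only genes that averaged 1 FPKM or more across the 12 libraries entered the tests, as log2(FPKM + 1), which understates changes of genes with low levels. limma 3.58.1 in R 4.3.3 fitted the 4 groups (lmFit, eBayes with a trend, no block), with Benjamini-Hochberg adjustment over all 11881 genes. The fit was tested on simulated data. The PARP3 level was tested by exact two-sided permutation in scipy 1.17.1. The 20 alternatives were 8 other settings (pseudocount 0.1, no filter, a minimum average of 5 FPKM, quantile normalization, a common median, only the libraries compared, no trend, a replicate block) and the omission of each library. Motifs were searched on both strands of RefSeq promoters. Their GRCh38.p14 coordinates were not joined to the hg19 data.

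The 10 genes and the lists were chosen with earlier results of these data known. From each list and comparison the text names up to 4 genes with the smallest adjusted p under 0.05 or, where none passed, the gene with the smallest p. ATF3 is named in addition to this rule. For genes whose group means span at least 0.5, it names the 3 genes of most similar profile. The study calls the replicates biological, and whether they were separate cultures is not given, so p-values measure the spread between these libraries. From the marker list of other cell types 1 gene is not reported here.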

Additional observations from a re-analysis of the deposited data

How the results depend on the processing

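Of 985 alternative values of the 10 genes, 907 kept their direction and their side of the threshold, 40 lost a call, 13 gained one and 25 changed sign. No change of sign concerned a call. Of 838 values of the list genes that the naming rule picked, 783 kept both, 54 lost a call, 1 gained one and none changed sign. With the fit limited to the 6 libraries compared, 0 of the 10 genes passed with pyridostatin in wild type, 3 with pyridostatin under the PARP3-/- label and 2 by genotype with vehicle, and of the list genes 6 passed with pyridostatin in wild type and 3 by genotype with vehicle. Over all genes that fit gave 56 higher and 9 lower with pyridostatin in wild type in place of 331 and 164, and 358 and 174 by genotype with vehicle in place of 760 and 358. By contrast it gave 989 and 634 by genotype with pyridostatin in place of 840 and 457, and 449 and 432 with pyridostatin under the PARP3-/- label in place of 362 and 299. The cause was not tested. Quantile normalization gave 2 of the 10 genes with pyridostatin under the PARP3-/- label, and it turned the signs of ATF4 by genotype with vehicle (0.017), CHAC1 with pyridostatin under the PARP3-/- label (-0.0017) and by genotype with vehicle (-0.0057), and the interactions of XBP1 (-0.0087) and VLDLR (0.0078).

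With each library left out in turn, between 2 and 6 of the 10 genes passed by genotype with pyridostatin, 2 and 4 by genotype with vehicle, 1 and 4 with pyridostatin under the PARP3-/- label, and 0 and 1 with pyridostatin in wild type. For the list genes the ranges were 9 to 22, 5 to 20, 11 to 28 and 7 to 15 in the same order. Without wild-type vehicle replicate 2, 4 of the 10 genes passed with pyridostatin under the PARP3-/- label and 2 by genotype with vehicle, and the list genes by genotype were 20 with vehicle and 22 with pyridostatin. Calls over all genes also rose without it, to 824 higher and 735 lower with pyridostatin under the PARP3-/- label, 1048 and 596 by genotype with vehicle and 1319 and 979 with pyridostatin, so these rises are not particular to the genes described. By genotype with vehicle, leaving out PARP3-/- vehicle replicate 1 or 3 also gave 2 of the 10, and list counts of 5 and 6 came without PARP3-/- vehicle replicates 1 and 2. By genotype with pyridostatin, leaving out wild-type pyridostatin replicate 1 or 3 or PARP3-/- pyridostatin replicate 2 gave 2 of the 10, and PARP3-/- pyridostatin replicate 3 gave 3. Either of those wild-type libraries gave a list count of 9. With pyridostatin in wild type, leaving out wild-type pyridostatin replicate 1 gave 0 of the 10 and 7 list genes. With pyridostatin under the PARP3-/- label, leaving out wild-type pyridostatin replicate 2 gave 3 of the 10, and list counts of 11 to 13 came without PARP3-/- vehicle replicate 2 or 3 or PARP3-/- pyridostatin replicate 2 or 3.

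Uncalled values that crossed 0 ranged, over the libraries left out, from -0.074 to 0.061 for ATF4 by genotype with vehicle, -0.12 to 0.017 for the ATF4 interaction, -0.040 to 0.12 for CHAC1 by genotype with vehicle, -0.074 to 0.12 for CHAC1 and -0.0057 to 0.11 for DDIT4 with pyridostatin under the PARP3-/- label. HERPUD1 ranged from -0.027 to 0.0064 in that comparison and from -0.024 to 0.011 by genotype with pyridostatin, VLDLR from -0.087 to 0.0013 by genotype with vehicle and from -0.061 to 0.028 in the interaction, and the XBP1 interaction from -0.041 to 0.056. The PARP3 difference ranged from 0.431 to 0.856 FPKM with vehicle and from 0.685 to 0.934 FPKM with pyridostatin.

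With the replicate block, 3 of the 10 genes passed by genotype with vehicle and 4 with pyridostatin (ASNS and HSPA5 were lost, respectively), and 1 in each pyridostatin comparison. The correlations of same-numbered libraries ran from -0.12 to 0.216, and no comparison had all 3 over 0.1, so the numbers are not read as pairs. The share of all calls that were higher, 68.0% and 64.8% by genotype (vehicle, pyridostatin) and 66.9% and 54.8% with pyridostatin (wild type, PARP3-/- label), became 51.7%, 53.1%, 45.6% and 45.3% when libraries were set to a common median, 57.8% by genotype with vehicle after quantile normalization, and 86.2% in wild type when only its libraries were fitted. CHAC1 was not tested at a mean of at least 5 FPKM, and the interaction has no value from the libraries of 1 comparison.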
